A study of Mus musculus with 6 samples.

Results

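The peroxisome proliferator-activated receptors (PPARs) and genes known to respond to them were followed in 6 mouse colorectal tumors. The 9 genes, out of 54167 listed, were chosen by name, with earlier results of these data known. They were the 3 receptors *Ppara*, *Ppard* and *Pparg*, the coactivator *Ppargc1a*, and the 5 targets *Pdk4*, *Angptl4*, *Fabp1*, *Cpt1a* and *Plin2*. The tumors came from C57BL/6J mice, 3 from *Trp53fl/fl* mice and 3 from *Pvillin-Cre* + *Trp53fl/fl* (*VP*) mice. Both genotypes thus carried the floxed *Trp53* alleles, and in *VP* mice Cre was driven by the villin promoter, which is active in the intestinal epithelium and not in the stroma or blood cells that a whole tumor also holds. Male mice aged 8 weeks were given the carcinogen azoxymethane (AOM, 10 mg/kg, intraperitoneally) and then cycles of 7 days on water with 2.5% dextran sulfate sodium (DSS), an agent that causes colitis, and tumors were taken on day 98. RNA of whole tumors was sequenced and the expression of each gene was given in TPM (a transcript level scaled by transcript length and by the total of the sample, so that levels of different genes can be set beside each other). In such bulk tissue, fewer cells of a type and less RNA per cell cannot be told apart.

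PPARs are nuclear receptors that bind fatty acids and their derivatives and, paired with a retinoid X receptor (RXR), occupy DNA elements beside genes of lipid handling. PPARα drives fatty acid oxidation in liver and in the absorptive cells of the intestine, PPARδ is the widely expressed form and is abundant in colonic epithelium, and PPARγ is best known from adipocytes but is also found in colonocytes and macrophages. Their targets include enzymes that admit fatty acids to mitochondria, proteins that coat lipid droplets and secreted inhibitors of lipoprotein lipase. How these genes stood when p53 was deleted from the tumor epithelium is the comparison that the 2 genotypes allow.

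The transcript levels showed a PPAR system led by *Ppard*, with *Pparg* next and *Ppara* close to the detection filter, and none of the 3 receptors passed the test between the genotypes. Among the targets, *Plin2*, *Cpt1a*, *Pdk4* and *Angptl4* were measured and *Fabp1* was listed at 0 in every tumor. *Pdk4* had lower values and *Angptl4* higher values in all 3 *VP* tumors than in all 3 *Trp53fl/fl* tumors, but neither passed the adjustment over all genes. With limma on log2(TPM + 1), 0 of the 8 genes that passed the filter of at least 1 TPM in at least 3 tumors had an adjusted p under 0.05, and 2 of 8 had an unadjusted p under 0.05. Over all 15117 genes tested, 0.165% were called at an adjusted p under 0.05 (0.0794% with higher and 0.086% with lower expression in *VP* tumors), and an unadjusted p under 0.05 was reached by 12.5% (4.51% higher and 8% lower).

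The labels call the samples replicates and do not say which mouse each came from, so p-values measure the spread between these tumors. *Trp53* itself read 124.94, 99.30 and 147.45 TPM in *Trp53fl/fl* tumors against 38.45, 32.79 and 27.83 TPM in *VP* tumors, and fell by 1.87 on the log2 scale (standard error 0.18, limma adjusted p = 0.0207). That call was lost, at little change in fold, without *Trp53fl/fl* replicate 1 (limma adjusted p = 0.0986), *Trp53fl/fl* replicate 3 (0.0553), *VP* replicate 1 (0.0583) or *VP* replicate 2 (0.0938). The summed TPM of 12 epithelial markers ran from 11064 to 11440 in *Trp53fl/fl* tumors and from 12554 to 13607 in *VP* tumors, with 3 of the 12 above in every *VP* tumor, against 6.03% of all genes tested. These 3 were *Krt19*, *Cldn7* and *Lgals4*. The *VP* mean was higher for 10 of the 12, but the log2 fold changes of *Epcam*, *Cdh1* and *Krt18* were only 0.0028, 0.024 and 0.0036. The summed TPM of 10 neutrophil markers ran from 261 to 603 in *Trp53fl/fl* tumors and from 1103 to 1901 in *VP* tumors, with 7 of the 10 above in every *VP* tumor. The sums of the macrophage (985 to 1363 TPM over the 6 tumors), endothelial (111 to 140 TPM), fibroblast (726 to 1068 TPM), mature colonocyte (690 to 931 TPM) and distal colon markers (173 to 270 TPM) overlapped between the genotypes. Above in every *VP* tumor were 1 of 8 macrophage, 1 of 8 endothelial and 1 of 10 mature colonocyte markers tested. Below in every *VP* tumor were 2 of 8 fibroblast and 1 of 10 mature colonocyte markers tested, against 13.3% of all genes tested. The part of these cell mixtures in the values of the PPAR genes was not tested. All fold changes are *VP* minus *Trp53fl/fl* on the log2(TPM + 1) scale, which understates changes of genes near 1 TPM, and the sequencing depth behind the TPM values is unknown.

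PPAR and RXR together recognise a direct repeat of AGGTCA with 1 base between the copies. This repeat was searched on both strands of RefSeq promoter windows (250 bases before to 50 bases after an annotated start, GRCm38.p6) for the 8 genes of the 9 that had a window, *Angptl4* being without one. The windows with the closest matches belonged to *Fabp1*, the target listed at 0 in these tumors, and *Plin2*, the most abundant of the 9 genes. They are shown with those of *Pdk4*, whose values were below in every *VP* tumor, and *Cpt1a*, each read 5′ to 3′ on the strand of its gene, with the 13 bases of the best match, on either strand, in capitals.

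Fabp1, chr6:71199802-71199834, plus strand: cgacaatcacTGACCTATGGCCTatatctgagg
Plin2, chr4:86670262-86670294, minus strand: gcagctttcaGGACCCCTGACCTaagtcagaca
Pdk4, chr6:5496412-5496444, minus strand: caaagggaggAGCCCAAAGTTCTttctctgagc
Cpt1a, chr19:3323145-3323177, plus strand: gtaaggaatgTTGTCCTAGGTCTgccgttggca

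The *Fabp1* match held 11 of the 12 fixed bases of the repeat on the opposite strand, with its first base 67 bases upstream of the start. At most 1 mismatch was found in 0.554% of all 32851 promoter windows. The *Plin2* match held 10 of 12 bases, also on the opposite strand, 225 bases upstream of the start, and at most 2 mismatches were found in 3.86% of all windows. The best matches in the *Pdk4* and *Cpt1a* windows held 8 of 12 bases, a level reached by 79.8% of all windows. A single AGGTCA, on either strand, stood in 5 of the 10 windows of the 8 genes and in 16.3% of all windows. These 5 windows belonged to 4 of the 8 genes, since *Pparg* had several windows. A match is a description of the letters, and a window without one says nothing of elements elsewhere in the gene.

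*Ppard* (ENSMUSG00000002250, GRCm38 chromosome 17 from 28232700 to 28301474) encodes PPARδ. It was at 57.23, 48.33 and 59.59 TPM in *Trp53fl/fl* tumors and at 57.51, 69.57 and 68.68 TPM in *VP* tumors. *VP* replicates 2 and 3 were the highest of the 6, while *VP* replicate 1 lay among the *Trp53fl/fl* tumors, so the genotypes overlapped. The means were 55.1 ± 5.94 TPM and 65.3 ± 6.72 TPM (SD, n = 3 each), and the log2 fold change was 0.24 (standard error 0.13, limma adjusted p = 0.473, 95% interval -0.06 to 0.55). It was 0.06 with epithelial centring (the mean of the 12 epithelial markers subtracted in each tumor) and 0.15 without *Trp53fl/fl* replicate 2.

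*Pparg* (ENSMUSG00000000440, chromosome 6 from 115360951 to 115490399) encodes PPARγ. Its values were 25.40, 36.00 and 20.69 TPM in *Trp53fl/fl* tumors and 29.03, 28.26 and 26.77 TPM in *VP* tumors. The *VP* tumors lay close together inside the range of the *Trp53fl/fl* tumors, whose replicate 2 was the highest and replicate 3 the lowest of all. The means were 27.4 ± 7.84 TPM and 28.0 ± 1.15 TPM (SD, n = 3 each), and the log2 fold change was 0.07 (standard error 0.20, limma adjusted p = 0.899, 95% interval -0.39 to 0.53). Its sign turned to -0.11 when *Trp53fl/fl* replicate 3 was left out and, equally, when the tumors were centred on the epithelial markers. Of 8 adipocyte markers, 4 stayed below 1 TPM in every tumor. Among these, *Lep* was at 0 throughout and *Adipoq* at 0 in all but *Trp53fl/fl* replicate 2, where it was 0.23 TPM. *Fabp4* (12.6 to 24.7 TPM), *Lipe* (5.22 to 7.64 TPM) and *Cidec* (1.27 to 5.47 TPM) were measured in every tumor. The remaining marker, *Cfd*, was at 1.80 TPM in *Trp53fl/fl* replicate 2, at 0.19 TPM in *VP* replicate 2 and at 0 in the others. The summed TPM of the list overlapped between the genotypes (20.8 to 30.9 against 21.2 to 37.4).

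*Ppara* (ENSMUSG00000022383, chromosome 15 from 85734983 to 85802819) encodes PPARα, the receptor of the fasting liver. It was at 0.71, 0.70 and 5.33 TPM in *Trp53fl/fl* tumors and at 1.02, 1.40 and 0.46 TPM in *VP* tumors, and it reached 1 TPM in exactly 3 tumors, the number the filter asked for. *Trp53fl/fl* replicate 3 stood apart from the other 5 tumors, which all lay at or below 1.40 TPM. The log2 fold change was -0.46 (standard error 0.53, limma adjusted p = 0.728, 95% interval -1.70 to 0.78), and without *Trp53fl/fl* replicate 3 it turned to 0.17 (limma adjusted p = 0.806). The direction of *Ppara* thus rested on 1 tumor.

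**Figure D1:**
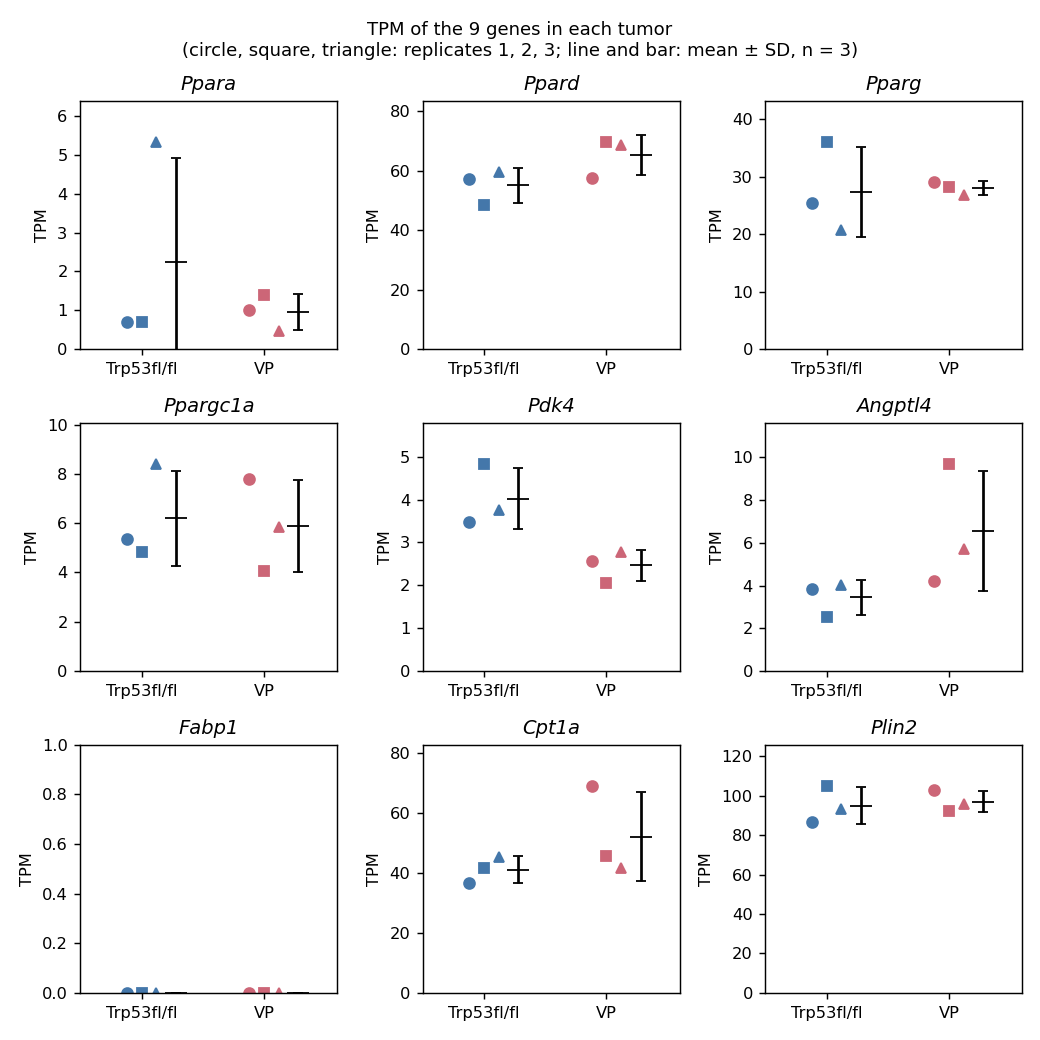
TPM of the 9 PPAR genes (y axis, linear, one panel per gene with its own scale) in the 3 *Trp53fl/fl* and 3 *VP* tumors, with circle, square and triangle for replicates 1, 2 and 3 and a line with bars for the mean ± SD (the lower bar of *Ppara* runs below the axis). The genotypes are apart only for *Pdk4*, with *VP* tumors at 2.06 to 2.77 TPM, and *Angptl4*, with *VP* tumors at 4.23 to 9.69 TPM; *Fabp1* is at 0 in all 6 tumors.

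As shares of the summed TPM of the 3 receptors, *Ppard* made up 56.8% to 71.6%, *Pparg* 24.2% to 42.3% and *Ppara* 0.48% to 6.23% over the 6 tumors. *Ppard* was the leading receptor in every tumor. None of the 3 shares separated the genotypes. *Trp53fl/fl* replicate 2 had the highest share of *Pparg*, and *Trp53fl/fl* replicate 3 the highest share of *Ppara*.

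*Ppargc1a* (ENSMUSG00000029167, chromosome 5 from 51454250 to 51567726) encodes PGC-1α, a coactivator of PPARs and of other factors that control mitochondrial genes. It was at 5.37, 4.82 and 8.40 TPM in *Trp53fl/fl* tumors and at 7.80, 4.07 and 5.84 TPM in *VP* tumors. The highest value was that of *Trp53fl/fl* replicate 3 and the lowest that of *VP* replicate 2, and the genotypes overlapped. The log2 fold change was -0.06 (standard error 0.27, limma adjusted p = 0.934, 95% interval -0.69 to 0.57), and its sign turned under median-of-ratios rescaling and without *Trp53fl/fl* replicate 3 or *VP* replicate 2. Among the 3 PGC-1 family genes, *Ppargc1a* held 14.1% to 24.1% of the summed TPM and *Pprc1*, the PGC-1-related coactivator, 63.9% to 76.5%.

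*Pdk4* (ENSMUSG00000019577, chromosome 6 from 5483351 to 5496309) encodes a kinase that switches off pyruvate dehydrogenase and so spares glucose when fatty acids are burned. It was at 3.48, 4.83 and 3.76 TPM in *Trp53fl/fl* tumors and at 2.56, 2.06 and 2.77 TPM in *VP* tumors. Every *VP* tumor lay below every *Trp53fl/fl* tumor, with a gap of 0.71 TPM between the nearest of them. The means were 4.02 ± 0.712 TPM and 2.46 ± 0.365 TPM (SD, n = 3 each), and the *VP* mean was 0.612 of the *Trp53fl/fl* mean. The log2 fold change was -0.53 (standard error 0.18, 95% interval -0.96 to -0.10), with an unadjusted limma p of 0.0222 and an adjusted p of 0.341. The difference kept its direction under each of the 12 alternative settings (limma adjusted p from 0.107 to 0.648), 9 of which had an unadjusted p under 0.05. Since the genotypes did not overlap, only median-of-ratios rescaling (log2 fold change -0.47) and epithelial centring (-0.71) could have turned it.

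The other pyruvate dehydrogenase kinases, *Pdk1*, *Pdk2* and *Pdk3*, were more abundant than *Pdk4* in every tumor. *Pdk4* contributed 6.86%, 8.59% and 6.29% of the summed TPM of the 4 kinases in *Trp53fl/fl* tumors and 3.89%, 3.52% and 5.30% in *VP* tumors. The shares of *Pdk4* did not overlap between the genotypes, and those of *Pdk1*, *Pdk2* and *Pdk3* did. These 3 paralogs differed between the genotypes by 0.16, 0.19 and -0.00 in log2 (limma adjusted p = 0.732, 0.620 and 0.996).

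*Angptl4* (ENSMUSG00000002289, chromosome 17 from 33773750 to 33781830) encodes a secreted inhibitor of lipoprotein lipase that answers both to PPARs and to low oxygen. It was at 3.84, 2.52 and 4.01 TPM in *Trp53fl/fl* tumors and at 4.23, 9.69 and 5.73 TPM in *VP* tumors. Every *VP* tumor lay above every *Trp53fl/fl* tumor, but the gap between *VP* replicate 1 and *Trp53fl/fl* replicate 3 was 0.22 TPM, and *VP* replicate 2 lay far above the rest. The means were 3.46 ± 0.816 TPM and 6.55 ± 2.82 TPM (SD, n = 3 each), and the *VP* mean was 1.89 times the *Trp53fl/fl* mean. The log2 fold change was 0.71 (standard error 0.29, 95% interval 0.03 to 1.40), with an unadjusted limma p of 0.0430 and an adjusted p of 0.386.

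*Angptl4* kept its direction under each of the 12 alternative settings, 4 of which had an unadjusted p under 0.05. Here too, without overlap, only median-of-ratios rescaling (log2 fold change 0.78) and epithelial centring (0.54) could have turned it. Without *VP* replicate 2 the difference shrank to 0.43 in log2 (limma adjusted p = 0.659). That tumor also had the highest sum of the 8 smooth muscle markers, 1390 TPM against 437 to 903 TPM in the other 5 tumors, and the highest sums of the neutrophil, fibroblast and mature colonocyte markers. Their part in the level of *Angptl4* was not tested. Within the 6 angiopoietin-like genes, *Angptl4* made up 7.05% ± 1.21 in *Trp53fl/fl* tumors and 13.2% ± 3.92 in *VP* tumors (SD, n = 3 each), without overlap. *Angptl2* was the most abundant of them in every tumor, at 28.7 to 46.9 TPM, and overlapped between the genotypes.

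*Pdk4* and *Angptl4* were the 2 of 8 genes tested whose values did not overlap between the genotypes, against 19.3% of all genes tested. *Angptl4* was the 1 of 8 above in every *VP* tumor, against 6.03% of all genes, and *Pdk4* the 1 of 8 below, against 13.3% of all genes. The ratio of *Angptl4* to *Pdk4* in TPM was 1.10, 0.522 and 1.07 in *Trp53fl/fl* tumors and 1.65, 4.70 and 2.07 in *VP* tumors. The pair was picked for its opposite directions, so the ratio is a description.

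**Figure D2:**
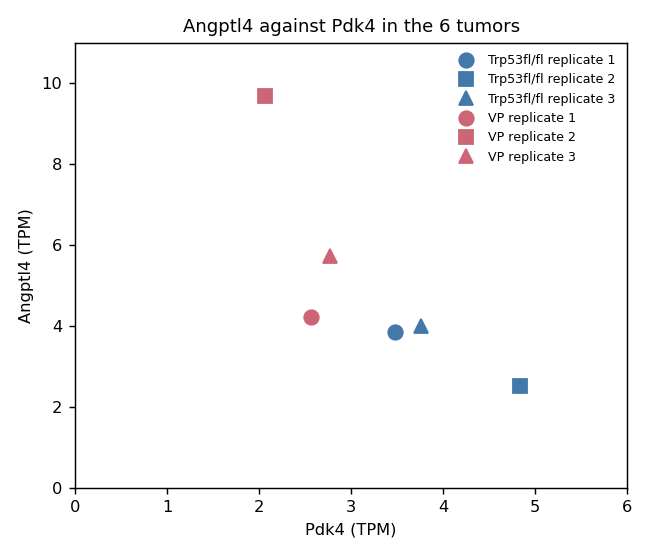
*Angptl4* against *Pdk4*, both in TPM on linear axes from 0, with 1 point per tumor (color for genotype, shape for replicate). The 3 *VP* tumors lie to the left of and above the 3 *Trp53fl/fl* tumors, with *VP* replicate 2 at the lowest *Pdk4* (2.06 TPM) and the highest *Angptl4* (9.69 TPM), and *Trp53fl/fl* replicate 2 at the highest *Pdk4* (4.83 TPM) and the lowest *Angptl4* (2.52 TPM).

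*Cpt1a* (ENSMUSG00000024900, chromosome 19 from 3322334 to 3385733) encodes the carnitine palmitoyltransferase of the outer mitochondrial membrane, the gate through which long-chain fatty acids enter mitochondrial oxidation. It was at 36.58, 41.56 and 45.36 TPM in *Trp53fl/fl* tumors and at 69.05, 45.72 and 41.61 TPM in *VP* tumors. *VP* replicate 1 was far above the other 5 tumors, and the remaining *VP* tumors lay near the *Trp53fl/fl* tumors. The means were 41.2 ± 4.40 TPM and 52.1 ± 14.8 TPM (SD, n = 3 each), and the log2 fold change was 0.30 (standard error 0.20, limma adjusted p = 0.543, 95% interval -0.17 to 0.77). Without *VP* replicate 1 it was 0.09, and with epithelial centring 0.13.

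*Cpt1a* made up nearly all of the CPT1 transcripts, with 92.1%, 91.2% and 91.9% in *Trp53fl/fl* tumors and 95.7%, 93.1% and 94.4% in *VP* tumors. *Cpt1c*, the form best known from neurons, made up 7.49% ± 0.770 and 5.16% ± 1.29 (SD, n = 3 each). The *VP* tumors were above in the share of *Cpt1a* and below in that of *Cpt1c*, without overlap, while the share of *Cpt1b*, the muscle form, stayed at or under 1.13% and overlapped. Shares of 7 gene families were computed, and since members of a family sum to 100%, a higher share of one is a lower share of another.

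*Plin2* (ENSMUSG00000028494, chromosome 4 from 86648386 to 86670060) encodes perilipin 2, the coat protein of lipid droplets outside adipose tissue, and was the most abundant of the 9 genes. It was at 86.55, 104.88 and 93.11 TPM in *Trp53fl/fl* tumors and at 102.84, 92.11 and 95.88 TPM in *VP* tumors. The *VP* tumors lay inside the range of the *Trp53fl/fl* tumors. The means were 94.8 ± 9.29 TPM and 96.9 ± 5.44 TPM (SD, n = 3 each), and the log2 fold change was 0.03 (standard error 0.11, limma adjusted p = 0.912, 95% interval -0.23 to 0.30), with its sign turning under epithelial centring and without *Trp53fl/fl* replicate 1 or *VP* replicate 1. *Plin2* held 68.4% to 74.9% of the perilipin TPM and *Plin3*, the broadly expressed form, 23.7% to 29.9%. *Plin1*, the perilipin of adipocytes, held at most 0.0357%.

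**Figure D3:**
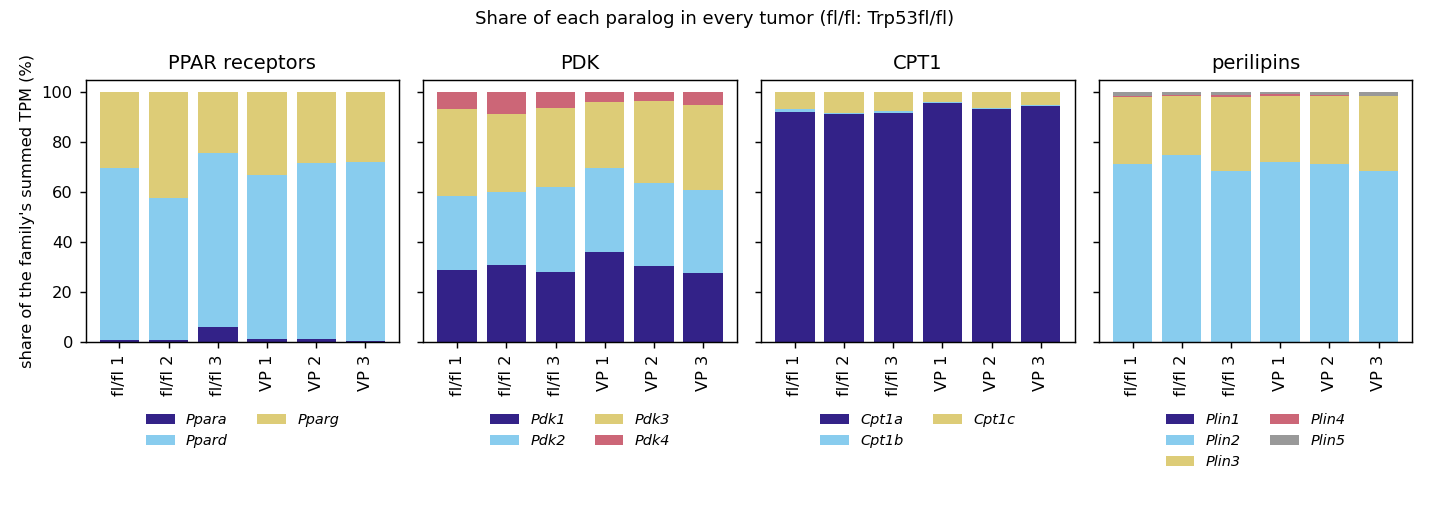
Share of each paralog in the summed TPM of its family (y axis, percent) in each of the 6 tumors (x axis), for the PPAR receptors, the pyruvate dehydrogenase kinases, the CPT1 genes and the perilipins. *Ppard*, *Cpt1a* and *Plin2* fill the largest part of their family in every tumor, and *Pdk4* the smallest part of its family, with 6.29% to 8.59% in *Trp53fl/fl* tumors and 3.52% to 5.30% in *VP* tumors.

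*Fabp1* (ENSMUSG00000054422, chromosome 6 from 71199827 to 71205023) encodes the fatty acid-binding protein of liver and of absorptive enterocytes. It was listed at 0 in all 6 tumors and was not tested. *Fabp5*, the epidermal form, made up 53.1% to 67.4% of the summed TPM of the 6 *Fabp* genes counted. *Fabp6*, which binds bile acids in the ileum, contributed 1.97%, 6.5% and 3.41% in *Trp53fl/fl* tumors and 6.60%, 11.4% and 10.7% in *VP* tumors, without overlap. The share of *Fabp3* did not overlap either and was lower in *VP* tumors (1.48%, 2.40% and 0.995% against 0.825%, 0.729% and 0.933%). *Fabp3* was at 0.61 to 1.59 TPM and did not pass the filter. In TPM, *Fabp6* was at 1.41, 4.31 and 2.30 in *Trp53fl/fl* tumors and at 5.12, 9.83 and 7.01 in *VP* tumors, a difference of 1.22 in log2(TPM + 1) with a limma adjusted p of 0.293. The summed TPM of 10 small intestine markers, *Fabp6* among them, was 33.9 to 40.7 in *Trp53fl/fl* tumors and 46.8 to 79.4 in *VP* tumors, and its part in the difference was not tested. Of these 10 markers 4 passed the filter, and most of the sum came from *Slc5a1* (22.5 to 49.1 TPM) and *Rbp2* (4.26 to 19.3 TPM), which overlapped between the genotypes, while *Alpi*, *Apoc3*, *Sis* and *Lct* stayed below 1 TPM in every tumor.

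In order of the mean over the 6 tumors, *Plin2* (95.9 TPM) led, and its lowest value lay above the highest value of *Ppard*. *Ppard* (60.2 TPM) was above *Cpt1a* (46.6 TPM) in 5 of 6 tumors and their ranges overlapped, so the order of this pair was within the spread. *Pparg* (27.7 TPM) lay below the whole range of *Cpt1a* and above the whole range of *Ppargc1a* (6.05 TPM). *Ppargc1a*, *Angptl4* (5.0 TPM), *Pdk4* (3.24 TPM) and *Ppara* (1.6 TPM) followed, each above the next in 5 of 6 tumors with overlapping ranges. *Plin2* varied least among the 6 tumors, with a coefficient of variation of 7.20%, and *Ppara* most, with 116%.

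**Figure D4:**
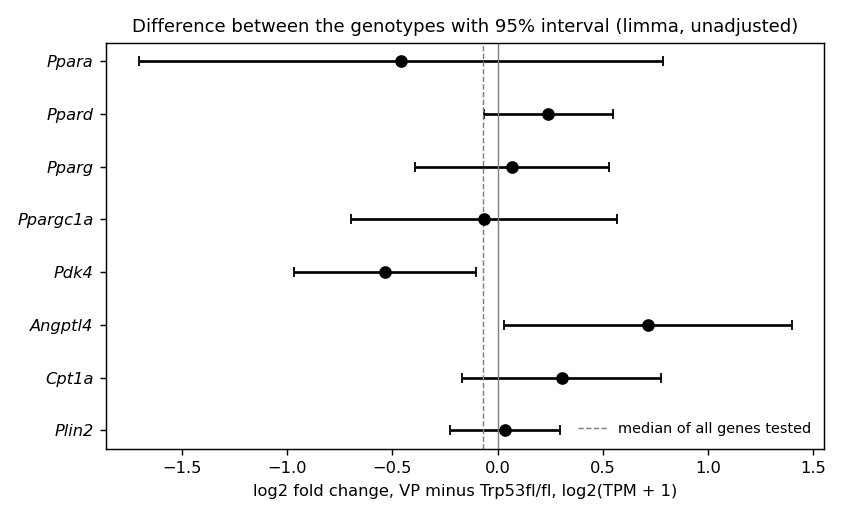
Log2 fold change of the 8 tested PPAR genes (x axis, *VP* minus *Trp53fl/fl*, log2(TPM + 1); points) with unadjusted 95% intervals from limma (bars), and the median of all genes tested, -0.07, as a dashed line. The intervals of *Pdk4* (-0.96 to -0.10) and *Angptl4* (0.03 to 1.40) do not include 0, and those of the other 6 genes do.

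The median log2 fold change of the 8 tested genes was 0.05, with 5 above 0 and 3 below, and that of all genes tested was -0.07. The receptors counted 2 above and 1 below, and the 4 tested targets 3 above and 1 below. The intervals leave room for sizeable differences: that of *Ppara* spans more than that of any other of the 8, and that of *Plin2*, the narrowest, runs from -0.23 to 0.30.

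Around these genes, 81 further genes were arranged in 7 lists, and 63 of them passed the filter. They were PPAR partners and coregulators, PPAR targets, and 9 genes taken only as paralogs of the targets. With limma 0 of the 63 had an adjusted p under 0.05, and at an unadjusted p under 0.05 there were 2 higher and 4 lower in *VP* tumors, 6 of 63 in all, a share below the 12.5% of all genes tested. All of them are outside the 9 genes described above.

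Among 15 RXR partners and coregulators, 14 were tested, and 13 of these had a log2 fold change below 0 (median -0.12). Of all 15117 genes tested, 9187 were below 0 (median -0.07). Those at an unadjusted p under 0.05 were *Ep300* and *Crebbp*, the paralogous acetyltransferases p300 and CBP, and *Nrip1*, a corepressor of nuclear receptors. *Ep300* was at 25.8 ± 2.57 TPM and 19.6 ± 1.89 TPM (SD, n = 3 each; log2 fold change -0.38, limma adjusted p = 0.340). *Crebbp* was at 7.90 ± 0.477 TPM and 5.86 ± 0.593 TPM (log2 fold change -0.38, limma adjusted p = 0.358). *Nrip1* was at 24.1 ± 2.32 TPM and 18.8 ± 1.35 TPM (log2 fold change -0.34, limma adjusted p = 0.345). All 3 were below in every *VP* tumor, as were 4 of the 14 tested genes of the list and 13.3% of all genes tested. *Rxra* and *Rxrb*, the partners that a PPAR needs to bind its repeat, stood at -0.02 and -0.04 on the log2 fold change scale (limma adjusted p = 0.934 and 0.928).

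Among 12 peroxisomal and microsomal targets, the classical PPARα response of rodent liver, 6 were tested and 1, with lower expression in *VP* tumors, had an unadjusted p under 0.05, while 0 had an adjusted limma p under 0.05. The median of the 6 tested genes was -0.12. *Cyp4a10* was listed at 0 in all 6 tumors, and *Cyp4a14* in all but *Trp53fl/fl* replicate 2, at 0.03 TPM.

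Among 14 mitochondrial and ketogenic targets, 12 were tested, 0 had an unadjusted limma p under 0.05 and the median log2 fold change was 0.06. The most abundant were *Ucp2*, an inner-membrane carrier (583 to 856 TPM), *Acadl*, a long-chain acyl-CoA dehydrogenase (125 to 157 TPM), and *Hadha* and *Hadhb*, the subunits of the trifunctional protein, and all 4 overlapped between the genotypes. Among 12 genes of fatty acid uptake and binding, 11 were tested with a median of 0.06, and *Fabp6* was the 1 with an unadjusted p under 0.05. Among 11 lipid droplet and lipase genes, 8 were tested with a median of 0.11 and 0 at an unadjusted limma p under 0.05, and *Pnpla2*, *Plin3*, *G0s2* and *Mgll*, the most abundant of them, overlapped between the genotypes. Among 8 other PPAR-responsive genes, 5 were tested with a median of 0.32, and 1 had an unadjusted p under 0.05. This was *Hilpda*, a lipid droplet protein induced by low oxygen and by PPARs, with means of 20.1 ± 1.02 TPM and 25.4 ± 3.04 TPM (SD, n = 3 each) and no overlap (log2 fold change 0.32, limma adjusted p = 0.384). Among 9 paralogs of the targets, 7 were tested with a median of -0.00 and 0 at an unadjusted limma p under 0.05.

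**Figure D5:**
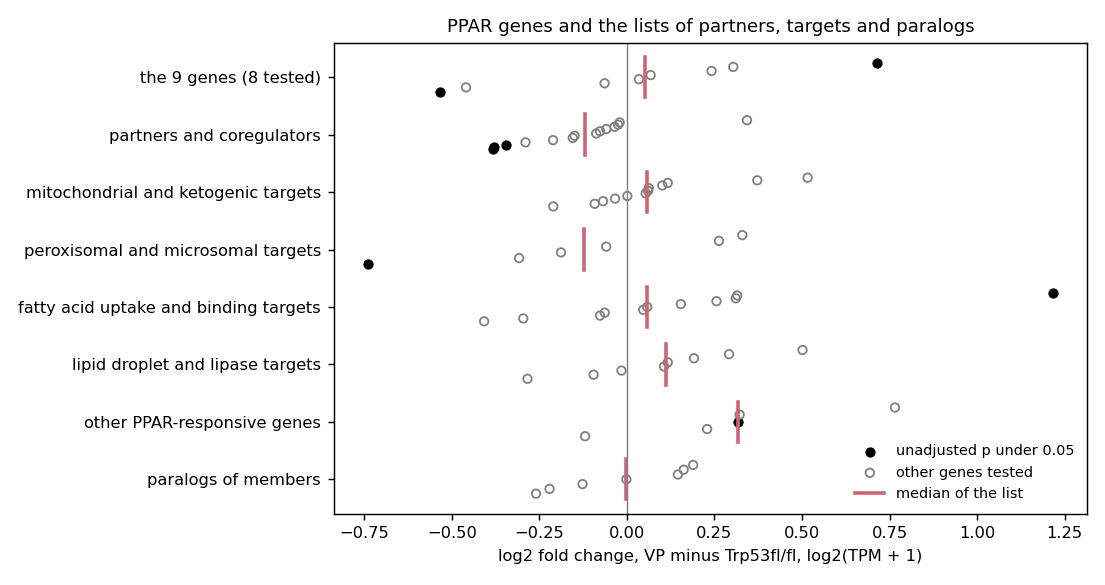
Log2 fold change (x axis, *VP* minus *Trp53fl/fl*, log2(TPM + 1)) of each tested gene of the 9 PPAR genes and of the 7 pathway lists (rows), with filled points for an unadjusted limma p under 0.05 and a bar for the median of each list. The medians lie between -0.12 and 0.32, and the filled points outside the 9 genes number 2 to the right of 0 and 4 to the left.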

How the data were processed

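RNA-seq values of 6 tumors, 3 per genotype, were analysed. The authors deposited 1 table of TPM per gene and tumor, given to 2 decimals, so read counts and depth are unknown and no count model was used. The submitters' processing notes name HISAT2, StringTie and mm9; versions and roles are not given in the sources used here, nor is a model for differences between genes. Groups came from the genotype labels.

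The 15117 of 54167 genes that reached 1 TPM in 3 or more tumors were tested with limma 3.58.1 in R 4.3.3 on log2(TPM + 1), with genotype as the only term, empirical Bayes with trend and Benjamini-Hochberg adjustment over all genes tested. A gene was called at an adjusted p under 0.05. The script was tested on simulated data. Family shares, marker sums and ratios were computed from TPM in Python 3.11.15. An exact permutation test of 3 against 3 tumors cannot go below 0.1 and was not used. Gene coordinates are those of GENCODE M21 (GRCm38), promoter windows those of RefSeq (GRCm38.p6); both differ from the build in the notes, and the table itself holds no coordinates.

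The PPAR genes, pathway lists and marker lists were chosen with earlier results of these data known. Genes named were all 9 PPAR genes; *Trp53*; in each pathway list those at an unadjusted p under 0.05 or, where there were none, up to 4 of the highest mean TPM; and, for the 3 PPAR genes with the largest SD of log2(TPM + 1), the 3 genes of most similar pattern. Of the genes this rule names, 2 are not reported here singly. *Rxra*, *Rxrb*, *Cyp4a10*, *Cyp4a14*, single markers and paralogs of the PPAR genes given with family shares were named outside this rule, after their values were seen. Of 5 distal colon markers, 4 were in the table and the other was not analysed here.

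The alternatives were a pseudocount of 0.1, no filter, median-of-ratios rescaling, centring on 12 epithelial markers, the replicate number as a block, no variance trend, and leaving out each tumor in turn.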

Additional observations from a re-analysis of the deposited data

How the results depend on the processing

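Under 12 alternatives, none of the 8 tested PPAR genes was called by limma. *Ppard*, *Pdk4*, *Angptl4* and *Cpt1a* kept their direction in each, with *Ppard* at 0.06 and *Cpt1a* at 0.13 with epithelial centring. No filter, the block and no variance trend leave the fold change of every gene as it is. For *Pdk4* and *Angptl4*, whose genotypes did not overlap, only median-of-ratios rescaling and epithelial centring could have turned the direction. The 2 genes at an unadjusted p under 0.05 became 1 (*Pdk4*) with no filter or with epithelial centring, 3 (with *Ppard*) with median-of-ratios rescaling, and 0 to 3 with a tumor left out, where 0 remained without *Trp53fl/fl* replicate 2 or *VP* replicate 2. Directions turned for *Pparg* (-0.11) and *Plin2* (-0.14) with epithelial centring, which moved the median of all genes from -0.07 to -0.25, and for *Ppargc1a* (0.0032) with median-of-ratios rescaling. With a tumor left out, the log2 fold change ran from -0.78 to 0.17 for *Ppara*, from -0.11 to 0.28 for *Pparg*, from -0.26 to 0.15 for *Ppargc1a* and from -0.029 to 0.11 for *Plin2*. The peroxisomal and microsomal list had 1 gene called with epithelial centring and 0 otherwise.

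Over all genes, the 25 calls became 7 with no filter, 43 with epithelial centring and 6 to 28 with a tumor left out. Higher calls made up 48.0%, against 60.0% with median-of-ratios rescaling, 27.9% with epithelial centring and 58.8% to 75.0% when single tumors were omitted. The log2 fold change of *Trp53* stayed at -1.87 with no filter but with an adjusted p of 0.104, and it lay between -2.02 and -1.74 when single tumors were omitted, with 4 of 6 such fits above an adjusted p of 0.05. The cause of these changes was not tested.

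Deviations of tumors that share a replicate number correlated at 0.0185, -0.052 and 0.0175, so these deviations showed no shared pattern. So few tumors per genotype cannot show whether tumors of the same number were paired, and the labels do not say. With the replicate number as a block, 10 genes were called (70.0% higher), 0 PPAR genes had an unadjusted p under 0.05, and *Trp53* had a log2 fold change of -1.87 with an adjusted p of 0.0883.

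The comparison rests on 3 tumors per genotype. Since the depth is unknown, no counting error can be given for low values such as those of *Ppara*, and no upper limit for *Fabp1*, in a table whose smallest step is 0.01 TPM.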

Other observations

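For the 3 PPAR genes with the largest SD of log2(TPM + 1) over the 6 tumors (0.77 for *Ppara*, 0.54 for *Angptl4* and 0.34 for *Ppargc1a*), the genes of most similar pattern were taken as those with the lowest root mean square difference of centred log2(TPM + 1) over the 6 tumors. They were picked from all genes tested, and all genes of a tumor share its library and its mix of cells, so the values are descriptions.

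For *Ppara*, they were *Scgb1b3* (0.165), *Cd22* (0.247) and *Prelp* (0.284). All 3 had their highest level in *Trp53fl/fl* replicate 3, the tumor in which *Ppara* stood apart. *Cd22*, a surface protein of B cells, was at 7.36 TPM there and at 1.23 to 2.41 TPM in the other 5 tumors. *Prelp*, a protein of the connective tissue matrix, was at 78.5 TPM there and at 26.2 to 48.4 TPM in the others.

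For *Angptl4*, they included an assembled transcript without a gene symbol (0.0693) and *Psmb10* (0.133). *Psmb10*, a subunit of the immunoproteasome, was at 104.45, 86.17 and 108.57 TPM in *Trp53fl/fl* tumors and at 117.65, 203.03 and 168.32 TPM in *VP* tumors. *VP* replicate 2 was the highest and *Trp53fl/fl* replicate 2 the lowest in both, as they were for *Angptl4*.

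For *Ppargc1a*, they were *Zfp444* (0.0675), *2610318N02Rik* (0.0731) and *Inpp5d* (0.0889). *Zfp444* was highest in *Trp53fl/fl* replicate 3 (33.9 TPM) and lowest in *VP* replicate 2 (16.6 TPM), the tumors in which *Ppargc1a* was highest and lowest.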
